A study of Mus musculus with 8 samples.

Results

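The zinc finger gene cluster on distal chromosome 4 of the mouse was examined in peak lists of the histone marks H3K9me3 and H4K20me3 and of the corepressor KAP1 (also called TRIM28). The members are all deposited peaks whose midpoint lies in chr4:145000000-148000000 of build mm9. This 3 Mb stretch was chosen by the density of the wild-type (WT) H3K9me3 peaks, which is highest there. It held 691 of the 38359 peaks in the 5 lists, namely 13 of 3176 H3K9me3 peaks in KAP1 knockout (KO) cells, 577 of 14596 in WT cells, 40 of 8920 H4K20me3 peaks in KO cells, 59 of 11295 in WT cells and 2 of 372 KAP1 peaks in WT cells. All libraries came from mouse embryonic fibroblasts (MEF), connective tissue cells of the embryo, labelled KAP1 KO or WT. Chromatin was fixed with formaldehyde, sheared by sonication and precipitated with antibodies against H3K9me3, H4K20me3 or, in WT cells alone, KAP1. Each group is 1 library, and how the KAP1 KO cells were made and how many embryos or lines they came from is not given in the sources used here. No library measured KAP1 in KO cells and the lists hold no expression values, so neither the knockout nor the fibroblast identity was checked here.

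KRAB zinc finger proteins form a large family of DNA-binding repressors whose genes lie in clusters that grew by tandem duplication. Their KRAB domain binds KAP1, which brings in the H3K9 methyltransferase SETDB1 and the chromatin protein HP1, and many of their binding sites lie in transposable elements. H4K20me3, laid down by the SUV420H enzymes that HP1 recruits, commonly accompanies H3K9me3 in heterochromatin. In human cells, zinc finger gene clusters are themselves known to carry H3K9me3 and KAP1.

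The names of the cluster's genes were taken from RefSeq's table of build GRCm38.p6, which differs from the mm9 build of the peaks, so no peak was assigned to a gene. In that table the longest run of Zfp genes on chromosome 4, allowing up to 2 other protein-coding genes between neighbours, held 16 of the chromosome's 27 protein-coding Zfp genes. No other run there held more than 1. In order, the run reads Zfp990, Gm13212, Zfp980, Zfp987, Zfp600, Zfp992, Zfp981, Zfp993, Rex2, Zfp978, Zfp991, Zfp988, Zfp982, Zfp985, Zfp979, Zfp534, Zfp984 and Zfp933. It is flanked by Tnfrsf1b, Tnfrsf8 and Gm42346 on one side and by Miip, Fv1 and Mfn2 on the other. Tnfrsf8 encodes the receptor CD30, Fv1 a retroviral restriction factor and Mfn2 a mitochondrial fusion protein.

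Some upstream sequences within this run are nearly identical, and those of 3 genes, the closest of those compared, are printed to show it. The genes themselves were not compared. Upstream sequence of 250 bases was found for 17 starts of 14 of the 18 genes in the run. Of the 132 pairs of starts from different genes, 3 differed by at most 25 single-base edits, while the median pair differed by 129. The closest pair, Zfp600 (chr4:146156577-146156826, + strand) and Rex2 (chr4:147021600-147021849, + strand), differed by 2 edits, an identity of 99.2%. Zfp979 (chr4:147642509-147642758, - strand) differed from Zfp600 by 15 edits, of which 3 are substitutions, 6 are added bases and 6 are absent bases. These positions are in GRCm38.p6 and cannot be set beside the mm9 positions of the peaks. The sequences are from RefSeq, read 5′ to 3′ towards the gene, and capitals mark bases substituted or added relative to Zfp600.
Zfp600: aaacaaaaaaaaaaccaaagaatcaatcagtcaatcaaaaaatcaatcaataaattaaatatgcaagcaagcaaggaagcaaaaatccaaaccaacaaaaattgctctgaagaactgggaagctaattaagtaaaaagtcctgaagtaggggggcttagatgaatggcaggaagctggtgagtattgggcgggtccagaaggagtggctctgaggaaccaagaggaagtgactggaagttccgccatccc
Rex2: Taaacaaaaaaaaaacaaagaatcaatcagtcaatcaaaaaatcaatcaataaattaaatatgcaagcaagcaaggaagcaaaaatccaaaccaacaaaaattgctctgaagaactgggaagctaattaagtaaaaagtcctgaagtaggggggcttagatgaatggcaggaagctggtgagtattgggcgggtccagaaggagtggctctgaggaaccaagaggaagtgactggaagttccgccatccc
Zfp979: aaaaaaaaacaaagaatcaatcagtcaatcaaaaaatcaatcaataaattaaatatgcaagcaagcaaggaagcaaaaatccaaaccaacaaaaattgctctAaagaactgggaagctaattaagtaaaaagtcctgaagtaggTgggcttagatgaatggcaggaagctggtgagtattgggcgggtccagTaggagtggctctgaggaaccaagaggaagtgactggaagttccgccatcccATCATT
How the authors' alignment treated reads that match several copies is not given in the sources used here.

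H3K9me3 peaks filled the cluster in WT cells up to a sharp edge. The values of the WT H3K9me3 list that follow chose the stretch and are given as a description. The stretch spans 1.97% of chromosome 4, measured from its first to its last peak, and held 45% of the chromosome's WT H3K9me3 peaks (577 of 1283). That is 192 peaks per Mb, against 4.72 per Mb in the rest of the chromosome, and the peaks covered 24.2% of the sequence, against 0.244%. The first member began at 145007552, and the nearest WT H3K9me3 peak before the stretch ended at 144550246. On the other side the dense run ended at 147214999, followed by 404 kb without a WT H3K9me3 peak. After the 2 remaining members, which lay in the bins starting at 147.6 and 147.7 Mb, the next WT peak began at 148793335.

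In bins of 100 kb, each of the first 22 bins, up to 147.2 Mb, held at least 10 WT H3K9me3 peaks, a number that none of the 1498 bins in the rest of chromosome 4 reached. The busiest were the bins starting at 146.6 Mb with 41 peaks, 146.5 Mb with 36, and 146.0 and 146.3 Mb with 33 each. The bin starting at 145.9 Mb was the thinnest of the 22, with 10. Coverage followed another order than number. The bin starting at 145.7 Mb held 16 peaks that covered 64.3% of it, and the bin starting at 146.7 Mb held 27 that covered 72.2%. No WT H3K9me3 peak lay in the bins starting at 147.3, 147.4, 147.5, 147.8 and 147.9 Mb.

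**Figure D1:**
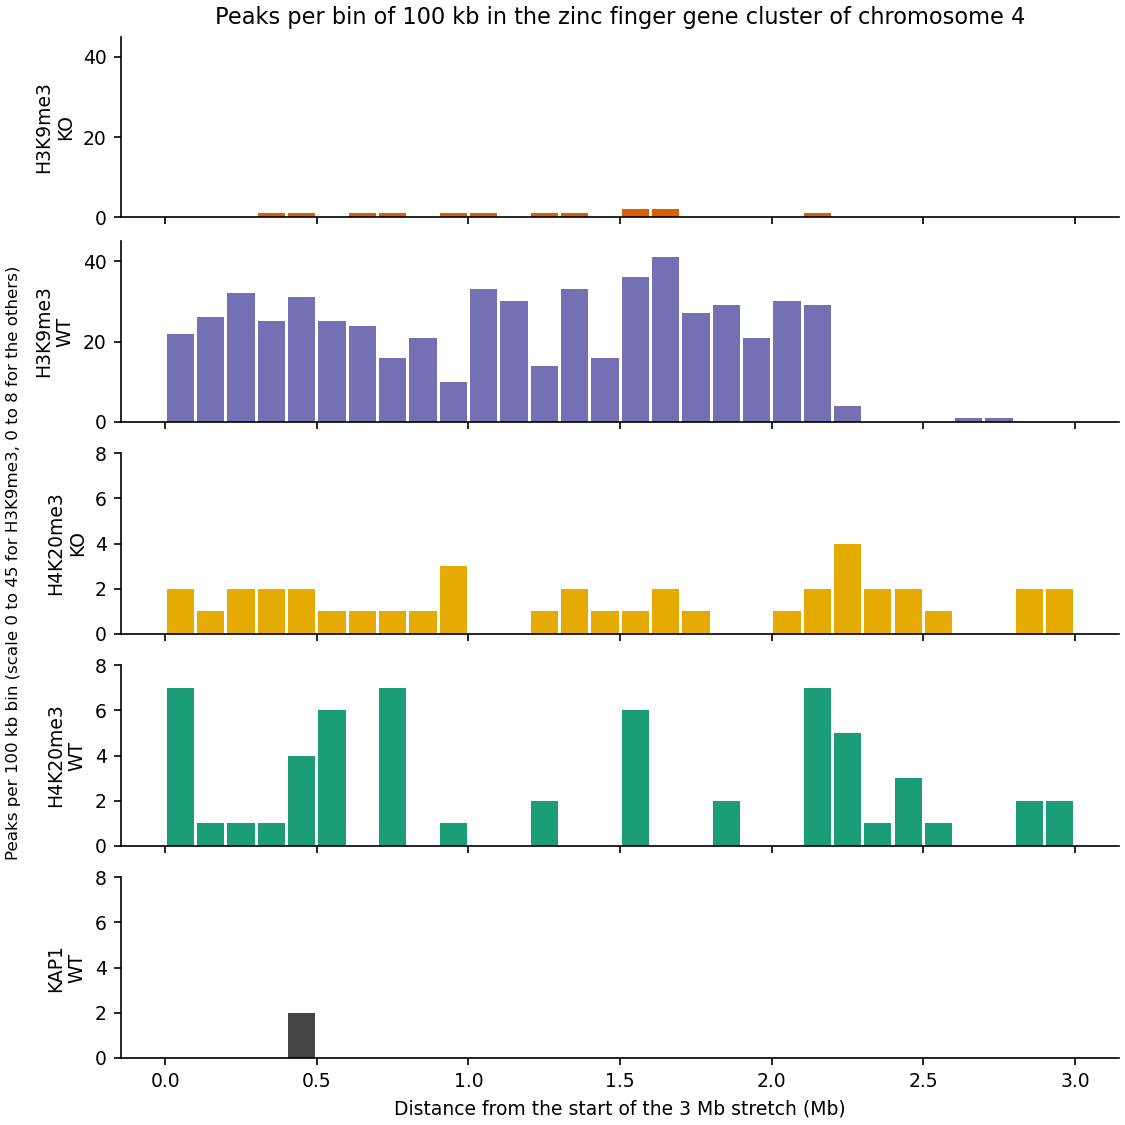
Peaks per bin of 100 kb (vertical axis) against distance from the start of the 3 Mb stretch (horizontal axis, Mb), with KO above WT for each mark and KAP1 in WT at the bottom. WT H3K9me3 reaches 41 peaks in a bin and stops after 2.3 Mb apart from 2 peaks, KO H3K9me3 never exceeds 2 in a bin, and H4K20me3 continues to the end of the stretch in both genotypes.

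Long H3K9me3 peaks were concentrated in the cluster. The median WT peak was 781 bp long in the cluster (quartiles 531 and 1245 bp) and 422 bp in the rest of chromosome 4 (quartiles 341 and 572 bp). Of the 38 WT H3K9me3 peaks of at least 5 kb in the whole series, 19 lay in the cluster, and of the 10 of at least 10 kb, 7 did. None of the others of at least 5 kb lay on chromosome 4, and chromosome 8 held 4 of them. The longest WT H3K9me3 peak of the series, 15085 bp from 145709101 to 145724185, was a member. Its deposited score, a value of the authors' peak caller that is used here to rank peaks within a list, was 197, so it ranked 1309 in the list. The members of at least 5 kb had a median score of 656, and the 19 such peaks elsewhere 1025. Score per kb of length was 75.5 at the median in the cluster and 169 elsewhere.

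**Figure D2:**
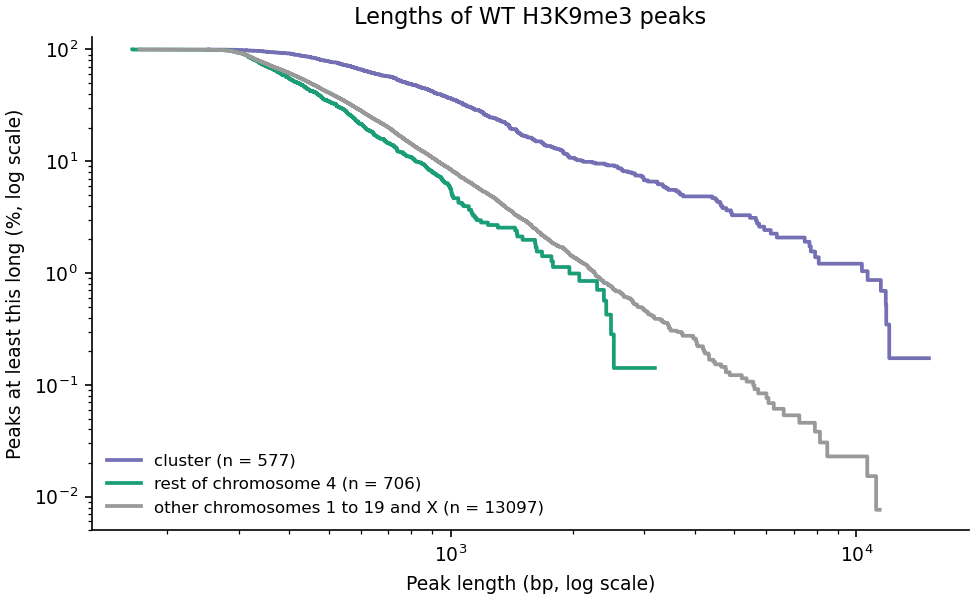
Share of WT H3K9me3 peaks (vertical axis, percent, log scale) that are at least as long as the value on the horizontal axis (bp, log scale), for the cluster, the rest of chromosome 4 and the other chromosomes 1 to 19 and X. The line of the cluster lies to the right of both others over most of its range and reaches 15085 bp, while the rest of chromosome 4 ends at 3185 bp.

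In KAP1 KO cells nearly all of this H3K9me3 was no longer called. The KO list held 13 peaks in the cluster and the WT list 577, a KO to WT ratio of 0.0225, against 0.159 in the rest of chromosome 4 and 0.215 on the other chromosomes 1 to 19 and X. The WT number in these ratios is the value that chose the stretch, so a lower ratio than elsewhere is favoured by the choice and is given as a description. By length, 10.6 kb was covered in KO cells and 725 kb in WT cells, a ratio of 0.0146, against 0.147 in the rest of chromosome 4. A WT peak that shares 1 bp or more with a KO peak of its mark is called kept, and any other is called lost. Of the 577 WT peaks, 13 were kept (2.25%, 95% interval 1.20 to 3.82%) and 564 were lost, while over the whole series 3.10% were kept and 96.9% lost. The rest of chromosome 4 kept 26 of 706 (3.68%, interval 2.42 to 5.35%) and lost 96.3%. The intervals overlap, and at 1 library per group the difference in the share kept between the cluster and the rest of the chromosome was not tested. The share kept in the cluster was 0.520% when at least 50% of the WT peak had to be covered and 10.2% when peaks within 5 kb were merged first, and with that merging the difference from the rest of chromosome 4 was 6.49 percentage points instead of -1.43.

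By length, the share of WT H3K9me3 peaks kept was lowest in the cluster from 500 bp upwards, although its interval stood apart from only 1 of the 2 comparison parts in each of the middle classes and from neither at 2000 bp or more. Of the members from 500 to under 1000 bp, 2 of 242 were kept (0.826%, interval 0.100 to 2.95%). In the rest of chromosome 4 it was 13 of 204 (6.37%, interval 3.44 to 10.7%), which stands apart, and on the other chromosomes 1 to 19 and X 119 of 4299 (2.77%, interval 2.30 to 3.30%), which overlaps. From 1000 to under 2000 bp, 3 of 149 members were kept (2.01%, interval 0.417 to 5.77%). The rest of chromosome 4 kept 3 of 33 (9.09%, interval 1.92 to 24.3%), which overlaps, and the other chromosomes 74 of 922 (8.03%, interval 6.35 to 9.97%), which stands apart. At 2000 bp or more, 5 of 62 members were kept (8.06%, interval 2.67 to 17.8%), against 1 of 7 in the rest of chromosome 4 (14.3%, interval 0.361 to 57.9%) and 38 of 184 on the other chromosomes (20.7%, interval 15 to 27.2%). Below 500 bp the order was the reverse, with 3 of 124 members kept (2.42%, interval 0.502 to 6.91%), against 9 of 462 (1.95%, interval 0.895 to 3.67%) and 92 of 7692 (1.20%, interval 0.965 to 1.46%), all within overlapping intervals. These intervals cover counting error over peaks alone, and neighbouring peaks of 1 library are not independent, so no test was made. The WT peaks counted are those whose density chose the stretch, so the shares by length are given as a description. They were not recounted after merging, which reversed the sign of the difference over all lengths.

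**Figure D3:**
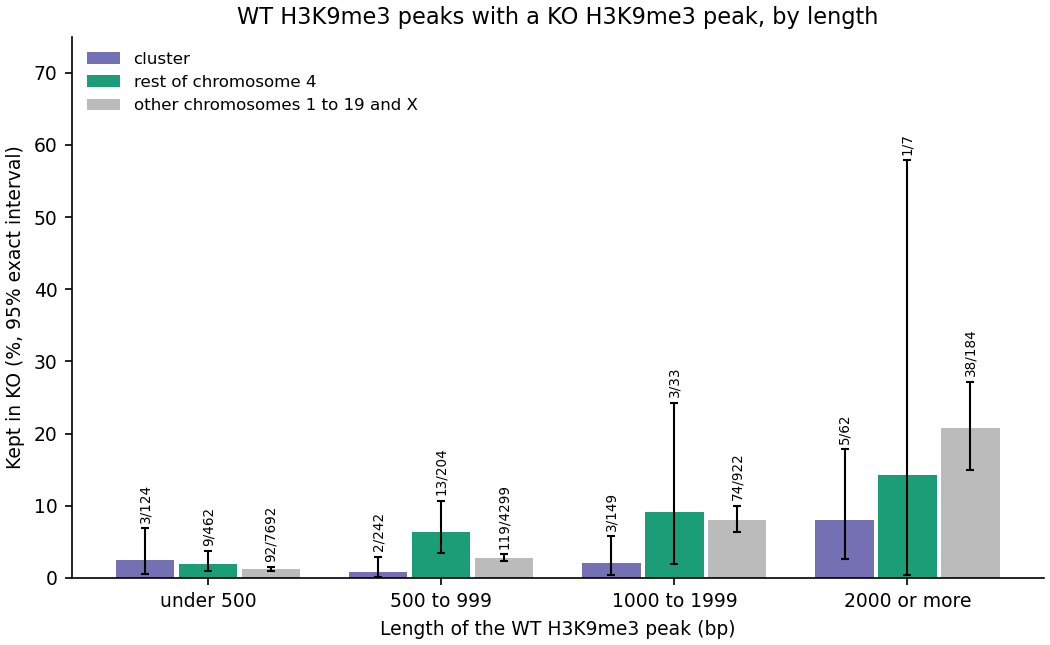
Share of WT H3K9me3 peaks kept in KO (vertical axis, percent, bars with exact 95% intervals) by length of the WT peak (horizontal axis, bp), with the numbers kept and counted above each bar. From 500 bp upwards the cluster has the lowest bar in each length class, from 2 of 242 to 5 of 62, although its interval overlaps that of the rest of chromosome 4 at 1000 bp and more.

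Where H3K9me3 was kept, KO peaks covered a small part of most WT peaks. The 13 kept members spanned 55.0 kb in WT cells, of which KO peaks covered 9.71 kb or 17.7%. In the rest of chromosome 4 the corresponding share was 59.5%, and on the other chromosomes 1 to 19 and X it was 77.7%. The median kept member was covered to 24.4%, with a range from 7.47 to 78.5%, and 3 of 13 were covered by 50% or more, against 16 of 26 in the rest of chromosome 4. The kept WT peaks were longer in the cluster, with a median of 1393 bp against 670 bp in the rest of chromosome 4. The KO H3K9me3 peaks were longer there too, with a median of 731 bp against 408 bp. The longest KO H3K9me3 peak in the cluster was 1521 bp. The part of WT peak length in the share covered was not tested.

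Of the 13 KO members, 12 overlapped a WT H3K9me3 peak (92.3%, interval 64.0 to 99.8%), against 23 of 112 in the rest of chromosome 4 (20.5%, interval 13.5 to 29.2%). Put the other way, 1 of 13 was new, while 86.4% of KO H3K9me3 peaks in the whole series and 79.5% in the rest of chromosome 4 lay where no WT peak was called. A KO H4K20me3 peak lay on 3 of the 13, against 3.24% in the whole series and 6.25% in the rest of chromosome 4. WT peaks cover 31.5% of the first 23 bins, up to 147.3 Mb, where all 13 lie, and the part of that cover, which chose the stretch, in the overlap was not tested. When the WT list was cut to as many of its highest-scoring peaks as the KO list holds, 4 of the 13 KO members were new (30.8%, interval 9.09 to 61.4%). The only new one spanned 146316169 to 146316631 with a score of 70.0, at 4264 bp from the nearest WT peak.

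The KO H3K9me3 peak with the highest score, 196, lay at 145426308 to 145427555 of build mm9. It was followed by peaks at 146649160 to 146650448 with a score of 168 and at 145721904 to 145723424 with a score of 131. Those are the 3 KO members that reach a score of 100. The other 10 scored between 50.8 and 93.8, in a list whose median score was 63.0 and whose upper quartile was 84.6. They begin at 146034593, 147112660, 145617261, 145335308, 146560896, 146316169, 146645746, 146583398, 145953464 and 146230566, in order of falling score. No bin of 100 kb held more than 2.

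Strong WT members were found among both the kept and the lost peaks. The 5 kept members with the highest WT scores began at 145422680 (8073 bp, WT score 2379), 146640067 (10314 bp, 1235), 146551451 (11810 bp, 786), 146032890 (2994 bp, 259) and 145616627 (1514 bp, 208). The scores of the KO peaks over them were 196, 168, 74.7, 93.8 and 87.5 in the same order. The 5 lost members with the highest scores began at 145415018 (7660 bp, 2301), 145724193 (11484 bp, 1389), 145211359 (3438 bp, 1324), 146763377 (4905 bp, 1043) and 146801522 (6149 bp, 965). Their ranks in the WT list ran from 8 to 45 of 14596. Kept members had a median score of 197 and a median length of 1393 bp, and lost members 88.9 and 778 bp. By WT score, 5 of 337 members under 100 were kept (1.48%, interval 0.483 to 3.43%). From 100 to under 300 it was 5 of 191 (2.62%, interval 0.855 to 6%), and at 300 or more 3 of 49 (6.12%, interval 1.28 to 16.9%). The intervals overlap. In the whole series the shares were 2.1, 4.39 and 11.4%.

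Some adjoining WT H3K9me3 peaks were called differently, with a kept peak beside lost ones. KO H3K9me3 members were at most 1521 bp long, so a KO peak on 1 WT peak can leave its neighbours called lost. Of the 576 gaps between neighbouring WT H3K9me3 members, 83 were at most 100 bp (14.4%) and the median gap was 778 bp, against 43 of 704 (6.11%) and 72879 bp in the rest of chromosome 4. Joining peaks across such gaps gave 65 stretches of 2 to 5 peaks. Of the 83 adjoining pairs, 77 were of lost peaks, 6 joined a lost and a kept peak and none joined 2 kept peaks. The numbers in the rest of chromosome 4 were 41, 2 and 0 of 43 pairs. On the other chromosomes 1 to 19 and X, 25 of 738 pairs were of 2 kept peaks and 18 were mixed. Of the members in stretches 4 were kept (2.70%), and of the 429 lone members 9 (2.10%).

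The 6 mixed pairs came from 4 stretches, each with 1 kept peak. The most crowded ran for 21679 bp from 145410432 to 145432110 and held 5 WT H3K9me3 peaks. From left to right the first had a score of 483, the third 2301, the fourth 2379 and the fifth 81.6, and the second was 1071 bp long. Gaps of 86, 86, 2 and 39 bp parted them. The fourth alone was kept, over 1248 of its 8073 bp. WT H4K20me3 peaks covered 6082 bp of the third, lost peak in 3 pieces, the widest of which, from 145418169 to 145422438, was the longest WT H4K20me3 peak of the cluster at 4270 bp and had a score of 540. None of these 3 had a KO H4K20me3 peak.

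Within the cluster, KAP1 peaks were called in this stretch alone. Both KAP1 members lay on the fourth, kept H3K9me3 peak, at 145424898 to 145425585 with a score of 66.7 and at 145426714 to 145427555 with a score of 65.0. They ranked 254 and 269 of the 372 KAP1 peaks. The second lay inside the KO H3K9me3 peak (145426308 to 145427555), the KO H4K20me3 peak (145426568 to 145427597, score 124) and the WT H4K20me3 peak (145426038 to 145427915, score 196). The first overlapped H3K9me3 in WT cells and no other peak. KAP1 peaks on WT H3K9me3 make up 44.4% of the whole KAP1 list and 55.6% (5 of 9) in the rest of chromosome 4. Of the WT H3K9me3 members 1 of 577 lay on a KAP1 peak (0.173%, interval 0.00439 to 0.962%), against 1.27% in the rest of chromosome 4 and 1.29% in the whole series. The 576 others had no KAP1 peak, which at this library's unknown depth does not show that KAP1 was absent there.

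**Figure D4:**
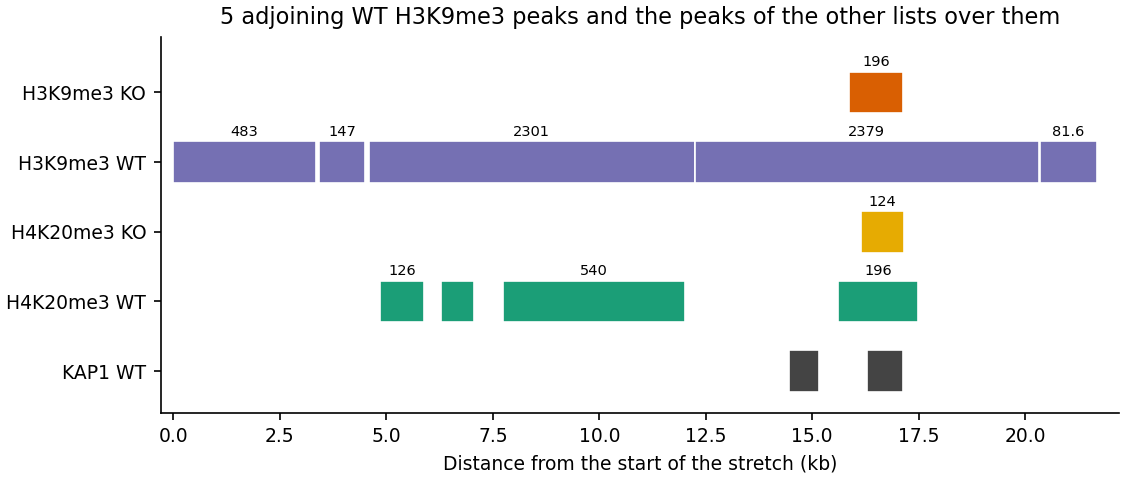
Peaks of the 5 lists over the 21679 bp stretch of 5 adjoining WT H3K9me3 peaks, as bars along the distance from its start (horizontal axis, kb), with the deposited scores above peaks longer than 1000 bp. The KO peaks of both marks and a KAP1 peak fall together on the fourth WT H3K9me3 peak (WT score 2379), and the third (score 2301) has H4K20me3 in WT only.

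The other 3 mixed stretches also held a kept peak beside lost ones, which is what defines a mixed stretch. The longest, 34340 bp from 145701337 to 145735676, held a lost peak of 7717 bp (score 826), the kept peak of 15085 bp described above and a lost peak of 11484 bp (score 1389). The kept one carried H4K20me3 over 6863 bp in WT cells and over 2109 bp in KO cells, and the lost peak after it over 5298 bp in WT cells alone. At 146637012 to 146650380, a lost peak of 2987 bp (score 352) adjoined the kept peak of 10314 bp, where 2354 bp lay in KO peaks and neither genotype had H4K20me3. The last, from 147113280 to 147114211, held a kept peak of 461 bp and a lost peak of 433 bp with scores of 53.5 and 60.8, of which the kept one shared only 96 bp with a KO peak.

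Of the 59 WT H4K20me3 members, 39 overlapped a WT H3K9me3 peak (66.1%, interval 52.6 to 77.9%), against 57 of 701 in the rest of chromosome 4 (8.13%, interval 6.22 to 10.4%) and 10.6% in the whole series. This is a description, since WT H3K9me3 density chose the stretch and its peaks cover 24.2% of it, against 0.244% of the rest of chromosome 4. Seen from H3K9me3, 34 of the 577 WT members carried H4K20me3 (5.89%, interval 4.11 to 8.14%), against 62 of 706 in the rest of the chromosome (8.78%, interval 6.80 to 11.1%) and 8.69% in the whole series. This share was 11.1% when a peak within 1 kb counted. Among members of 2000 bp and more, 14 of 62 carried it (22.6%, interval 12.9 to 35.0%). In the rest of chromosome 4 it was 3 of 7 (42.9%, interval 9.9 to 81.6%). On the other chromosomes 1 to 19 and X it was 108 of 184 (58.7%, interval 51.2 to 65.9%). The whole series, members included, stood at 44.1% (126 of 286, interval 38.2 to 50%). In bins of 100 kb, WT H4K20me3 was patchy, with 7 peaks each in the first bin and those starting at 145.7 and 147.1 Mb and 6 each in those starting at 145.5 and 146.5 Mb. No WT H4K20me3 member had its midpoint in 12 of the 30 bins.

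Counted together, WT H4K20me3 members were kept in KO cells less often than H4K20me3 peaks elsewhere, but not when peaks on and off H3K9me3 were counted apart. Of the 59, 21 were kept (35.6%, interval 23.6 to 49.1%), against 455 of 701 in the rest of chromosome 4 (64.9%, interval 61.2 to 68.4%) and 65.6% in the whole series. The lost share was 35.1% in the rest of chromosome 4 and 34.4% in the whole series. On WT H3K9me3, 6 of 39 members were kept (15.4%, interval 5.86 to 30.5%), against 3 of 57 in the rest of the chromosome (5.26%, interval 1.10 to 14.6%). Off H3K9me3, 15 of 20 were kept (75%, interval 50.9 to 91.3%), against 452 of 644 (70.2%, interval 66.5 to 73.7%). Within each class the cluster's share was the higher, and the intervals of the cluster and the rest of the chromosome overlap. At the cluster's mix of 39 members on and 20 off H3K9me3, the shares of the rest of chromosome 4 give 27.3% kept. That is below the observed 35.6% but within its interval. WT H3K9me3 density chose the stretch, so a large part of members on H3K9me3 is favoured by the choice. WT H4K20me3 members had a median score of 91.3 and the peaks in the rest of chromosome 4 one of 171. The part of score, and of position on H3K9me3, in the share kept was not tested.

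**Figure D5:**
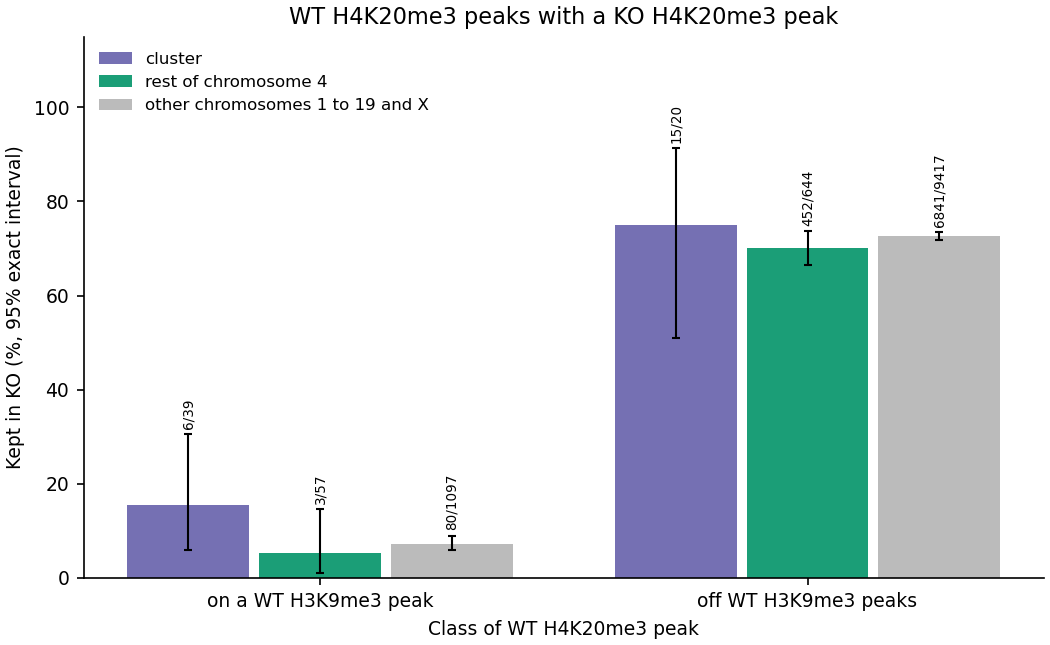
Share of WT H4K20me3 peaks kept in KO (vertical axis, percent, bars with exact 95% intervals) for peaks on and off a WT H3K9me3 peak, in the cluster, the rest of chromosome 4 and the other chromosomes 1 to 19 and X. On H3K9me3 the bars stand at 15.4, 5.26 and 7.29%, and off H3K9me3 at 75, 70.2 and 72.6%.

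The highest-scoring WT H4K20me3 members on H3K9me3 included kept and lost peaks. Among the 5 kept members with the highest scores, those beginning at 147965468 (score 516), 147932471 (319) and 147278347 (274) lay off H3K9me3, beyond the dense run. Those beginning at 147129251 (347) and 145720155 (289) lay on it. The 5 lost members with the highest scores began at 145418169 (540), 146554739 (253), 145038369 (178), 147176128 and 145730293 (142), and each lay on a WT H3K9me3 peak. In all, 33 of the 38 lost WT H4K20me3 members lay on H3K9me3 (86.8%), and 6 of the 21 kept ones (28.6%). In the rest of chromosome 4 these shares were 22.0% of lost and 0.659% of kept peaks.

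The KO list held 40 H4K20me3 members and the WT list 59, a ratio of 0.678, against 0.745 in the rest of chromosome 4. Of the 40, 19 lay where no WT H4K20me3 peak was called (47.5%, interval 31.5 to 63.9%), against 52 of 522 in the rest of chromosome 4 (9.96%, interval 7.53 to 12.9%) and 16.8% in the whole series. Among the 19 new ones, 15 overlapped a WT H3K9me3 peak (78.9%, interval 54.4 to 93.9%), against 3 of 52 in the rest of the chromosome (5.77%, interval 1.21 to 15.9%), and 1 overlapped a KO H3K9me3 peak. Among all 40 KO H4K20me3 members, 21 lay on WT H3K9me3, against 1.70% in the whole series and 1.15% in the rest of chromosome 4, and 3 lay on KO H3K9me3, against 1.15% and 1.53%. WT H3K9me3 density chose the stretch, and those peaks cover 31.5% of its first 23 bins and 0.244% of the rest of chromosome 4, so the overlaps with WT H3K9me3 are given as a description. The new members were weak, with a median score of 64.3, while the 21 shared with WT had a median of 124. New peaks also had the lower median elsewhere, with 73.8 against 172 in the rest of chromosome 4. On the other chromosomes 1 to 19 and X it was 80.2 against 245. The 5 new members with the highest scores began at 145458533, 145682103 (score 121), 146735104 (119), 146345994 (94.6) and 146395932 (92.8). All but the first touched WT H3K9me3, the last over 37 bp.

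Spread over the bins, KO H4K20me3 was more even than WT H4K20me3. KO peaks occurred in 24 of the 30 bins with at most 4 in any, and WT peaks in 18 bins with up to 7. In the rest of chromosome 4, KO peaks occurred in fewer bins than WT peaks, 337 against 414 of 1498. The most in any bin there was 5 in KO cells and 8 in WT cells. In the bin starting at 145.7 Mb the KO list held 1 peak and the WT list 7, and in the bin starting at 145.9 Mb it was 3 and 1. Cover of the sequence by H4K20me3 was 1.10% in KO cells and 2.37% in WT cells, a ratio of 0.466. The mean H4K20me3 peak was 828 bp long in KO cells and 1205 bp in WT cells. In the rest of chromosome 4 the ratio of covered length was 0.702.

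Beyond the dense run the window held almost no H3K9me3 peaks, while H4K20me3 peaks were called there in both genotypes. In the last 7 bins, from 147.3 Mb on, a boundary drawn after the bins had been seen, there were 0 KO and 2 WT H3K9me3 peaks, and 9 KO and 9 WT H4K20me3 peaks. Of those 9 WT H4K20me3 peaks, 6 were kept (66.7%, interval 29.9 to 92.5%) and none lay on H3K9me3. The share kept is near the 64.9% of the rest of chromosome 4 and the 65.6% of the whole series. In the first 23 bins, 15 of 50 were kept (30.0%, interval 17.9 to 44.6%) and 39 lay on H3K9me3. The intervals overlap, and the difference was not tested. The boundary was set where the dense WT H3K9me3 run ends, so the scarcity of H3K9me3 beyond it is given as a description. The same holds for the lack of H4K20me3 peaks on H3K9me3 there. The KO H4K20me3 peak with the highest score in the window, 508, lay in the far part, from 147965559 to 147966957, over the kept WT peak with a score of 516.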

How the data were processed

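Peak lists were deposited for 5 of the 8 samples. The 3 inputs were not analysed here. The submitters' processing notes name CASAVA 1.82, Bowtie2 2.2.1, MACS 1.4 and the mm9 build, without settings or the controls used for the histone calls. The header of the KAP1 list names a WT KAP1 run against a WT MEF run. The deposited score of each peak is the authors' own value and was compared only within a list. Read counts are not given, so depth is unknown, and a shallower library gives fewer peaks.

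Positions count from 1. Overlaps, in Python 3.11.15 (numpy 2.4.6, pandas 2.3.3), were checked on simulated lists. Shares carry exact Clopper-Pearson 95% intervals (scipy 1.17.1), for counting error alone. With 1 library per group there is no replicate error and no test between genotypes. Upstream sequences were compared by edit distance. Members and lists were chosen with earlier results of these data known. Named regions are the up to 5 highest-scoring kept, lost and new peaks of each mark, all KAP1 and KO H3K9me3 peaks, the longest peaks, mixed stretches, and the busiest and empty bins and stretches. Peaks of at least 5 kb, the length classes, the split at 147.3 Mb and the upstream sequences were picked with values in view. Counts of peaks at zinc finger genes were not made, as the annotation is of another build. Alternatives varied the overlap, score, merging, gap, window and bins. Figures used matplotlib 3.10.9.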

Additional observations from a re-analysis of the deposited data

How the results depend on the processing

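No paired analysis was possible because each group is 1 library, and for the same reason no library could be left out. Across 10 results and 12 alternatives, 37 of 59 values stayed within the interval of the reported value or, for counts and ratios, within 1.5 times of it, and 22 did not. The share of WT H3K9me3 members kept, 2.25% as reported, was 0.520% with at least 50% of the peak covered, 10.2% with peaks within 5 kb merged and 4.23% with equal numbers of highest-scoring peaks. The KO to WT ratio of H3K9me3 peak numbers, 0.0225 as reported, was 0.0125 with a score of at least 100, 0.136 merged and 0.0688 with equal numbers. The difference in the share kept, cluster minus rest of chromosome 4, was -1.43 percentage points as reported, -4.27 with a score of at least 100, -6.79 with equal numbers and 6.49, of the opposite sign, when merged. Merging turns the WT H3K9me3 members of the whole window into 88 regions, so fewer and longer units are counted. The cause of the other shifts was not tested. For H4K20me3, the share kept was 50% merged, against 35.6% as reported, and the ratio of peak numbers was 1.11 with equal numbers, against 0.678. The share of WT H3K9me3 members with H4K20me3 was 3.64% with at least 50% covered, 11.1% within 1 kb and 20.5% merged, against 5.89%. Adjoining pairs numbered 83 as reported, 28 with a score of at least 100, 13 with gaps of at most 10 bp and 318 with gaps of at most 1 kb, and mixed pairs 6, 2 with gaps of at most 10 bp and 15 with gaps of at most 1 kb. New KO H3K9me3 peaks made up 0 of 3 with a score of at least 100 and 4 of 13 (30.8%, within the reported interval of 0.195 to 36.0%) with equal numbers, against 1 of 13 (7.69%). The busiest bin held 23 peaks with bins of 50 kb and 17 with a score of at least 100, against 41. Depth is unknown, so an absent peak means that none was called.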

Other observations

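The KO H3K9me3 peak and the second KAP1 peak on the kept member of 8073 bp ended on the same base, 145427555. No other start or end in the cluster was shared to the base between any pair of the 5 lists. How often peak edges coincide outside the cluster is not given here.

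Among the 19 WT H3K9me3 members of at least 5 kb, 4 were kept (21.1%, interval 6.05 to 45.6%), against 7 of the 19 such peaks elsewhere (36.8%, interval 16.3 to 61.6%). WT H4K20me3 lay on 6 of the 19 members and on 9 of the 19 others. The member from 146768721 to 146779373, 10653 bp long, had a score of 88.1, and the member from 147008621 to 147020461, 11841 bp long, had a score of 110 and carried H4K20me3 over 1650 bp in KO cells but not in WT cells.

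WT H4K20me3 members on a kept H3K9me3 peak were kept in 2 of 5 cases, and those on lost H3K9me3 peaks alone in 4 of 34 (11.8%, interval 3.30 to 27.5%). In the rest of chromosome 4 the numbers were 3 of 6 and 0 of 51, the last of which allows a share of up to 6.98%. At these small numbers no order between the cluster and the rest of the chromosome was detectable on the kept peaks.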
